A study of Mus musculus with 43 samples.

Results

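The nuclear-encoded subunits of the respiratory chain were followed in 43 RNA-sequencing libraries of mouse cortical glia. The members were 50 genes of complexes I to IV chosen by name, out of 55416 genes counted in each library. They comprised 33 genes of complex I, 4 of complex II, 8 of complex III and 5 of complex IV. The level of a member is given as nuclear CPM, its count per 1000000 counts on nuclear genes, so that the mitochondrially encoded RNA of a library does not enter the denominator. The mitochondrial share of a library is the percent of all its gene counts that fell on the 37 mitochondrially encoded genes.

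Oligodendrocytes, oligodendrocyte precursor cells (OPCs), astrocytes and microglia were taken from the cortical grey matter of 3-month-old mice by immunopanning, in which cells bind to plates coated with antibody, and each library held 1 cell type of 1 mouse. The 12 mice formed 6 littermate pairs on a C57BL/6J background, each with a Rag2-/- mouse, which lacks mature T and B cells, and an immunocompetent control. Controls were Rag2+/- in 4 pairs and Rag2+/+ in the other 2, so most controls carried a deleted allele too. Oligodendrocytes came from 4 control and 4 Rag2-/- mice, OPCs from 6 and 5, and astrocytes and microglia from 6 and 6 each. The animals were 5 females and 7 males, and in pair 6 the control was male and the Rag2-/- mouse female. The antibody on the microglia plate was against CD45. Some peripheral macrophages may be among these cells, according to the study's methods, in lower number because the mice were perfused. All libraries of a cell type shared a sequencing lane, so a difference between cell types cannot be told apart from one between lanes.

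The respiratory chain passes electrons from NADH and succinate to oxygen and pumps protons across the inner mitochondrial membrane. Complex I oxidizes NADH, complex II oxidizes succinate, complex III passes electrons from ubiquinol to cytochrome c, and complex IV passes them to oxygen. Complex II is built from nuclear genes alone, whereas complexes I, III and IV also need core subunits made from mitochondrial DNA, so their assembly draws on 2 genomes. Mature oligodendrocytes and astrocytes are known as glycolytic cells, yet both hold mitochondria in their processes.

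The promoters of nuclear respiratory genes are known for short motifs bound by NRF1, by ETS family factors such as GABPA, by YY1 and by Sp1. The RefSeq table of promoters (build GRCm38.p6, 250 bases before to 50 after each start) matched 41 of the 50 members, with 43 promoters. The NRF1 letters GCGCATGCG or GCGCAGGCG stood on either strand in 10 of these promoters (23.3%), against 5.95% of the 21262 promoters in the table. The YY1 letters AAGATGGCG stood in 5 (11.6%, against 1.83%), the ETS letters CCGGAAG in 8 (18.6%, against 11.6%) and the Sp1 letters GGGCGG in 17 (39.5%, against 46.2%). No motif's letters contain those of another, though neighbouring matches can share bases, and a match describes sequence and is not a measured binding site.

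The 4 promoters below belong to members of complex II and complex I that were called between oligodendrocytes and microglia. Sdhd, Ndufs8 and Sdhb, 3 of the 4 members that were lower in oligodendrocytes than in microglia, had the ETS letters in their promoter. Sdha, which encodes the partner of Sdhb in complex II and was higher in oligodendrocytes than in microglia, had the NRF1 letters and no ETS letters. Uqcrh and Uqcr11, which were also called higher in oligodendrocytes than in microglia (log2 differences 0.38 and 1.02), had the ETS letters too, and Uqcr11 the NRF1 letters as well, so members with the ETS letters were found in both directions. Each stretch runs 5′ to 3′ on the gene's strand from 100 bases before to 30 bases after the start, and capitals mark the ETS letters, on either strand, in the first 3 and the NRF1 letters in the last. The stretches lie at chr9:50603820-50603949 (minus strand), chr19:3912745-3912874 (minus strand), chr4:140961171-140961300 (plus strand) and chr13:74350211-74350340 (minus strand) of GRCm38.p6.
Sdhd: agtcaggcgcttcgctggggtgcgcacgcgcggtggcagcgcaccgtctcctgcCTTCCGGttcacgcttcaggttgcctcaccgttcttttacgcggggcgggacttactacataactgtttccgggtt
Ndufs8: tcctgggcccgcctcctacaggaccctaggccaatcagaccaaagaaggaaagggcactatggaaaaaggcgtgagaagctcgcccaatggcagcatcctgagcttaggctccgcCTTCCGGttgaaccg
Sdhb: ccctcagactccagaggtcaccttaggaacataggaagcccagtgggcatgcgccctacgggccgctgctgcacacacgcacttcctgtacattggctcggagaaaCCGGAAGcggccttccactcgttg
Sdha: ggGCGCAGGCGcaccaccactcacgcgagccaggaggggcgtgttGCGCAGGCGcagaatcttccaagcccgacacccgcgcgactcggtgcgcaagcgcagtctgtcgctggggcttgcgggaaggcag

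A library held 6499417 to 23118497 counts on genes, of which 4309800 to 16040321 were nuclear. Each cell type was led by its own markers: the 8 oligodendrocyte markers summed to 38034 to 50803 nuclear CPM in oligodendrocytes, the 8 OPC markers to 12210 to 17217 in OPCs, the 8 astrocyte markers to 24944 to 33095 in astrocytes and the 8 microglia markers to 9448 to 11609 in microglia. No marker list was at 0 elsewhere. Oligodendrocyte markers held 5338 to 10583 nuclear CPM in astrocytes, astrocyte markers 3936 to 10823 in OPCs, and neuron markers 798 to 4051 in oligodendrocytes. The part of such RNA from other cells in the levels below was not tested, and in bulk samples fewer cells of a type and less RNA per cell cannot be told apart.

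All 50 members were detected in each cell type. The reads counted for some of them are uncertain, because multiply aligned reads were not counted and the strand setting of the counting is not given in the sources used here. Of the 50-base windows of the canonical transcript, 75.5% had an exact copy elsewhere in the genome for Ndufs5, 71.5% for Cox7c and 58.7% for Uqcrb, while 24 members had none. A gene on the opposite strand covered 67.8% of the exonic bases of Ndufb11 and 49.4% of those of Ndufs7, so their counts may include reads of Rbm10 and Gamt.

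Cox4i1, which encodes the subunit of complex IV that binds the mitochondrially encoded core early in assembly, had the highest level per kilobase of canonical transcript among the complex IV members in every cell type. Its mean nuclear CPM per kilobase was 453 in oligodendrocytes and 349 in astrocytes, then 248 in OPCs and 204 in microglia, against 11.7, 26.4, 18 and 7.57 for Cox5a, the lowest member of complex IV in each. Within complex II, Sdha, which encodes the flavoprotein that oxidizes succinate, was the highest per kilobase, at 79.1 in oligodendrocytes, 98.3 in astrocytes, 67.4 in OPCs and 49.3 in microglia, and Sdhb, which encodes the iron-sulfur subunit, was the lowest, at 6.91, 18.3, 11.9 and 9.16 in the same order. In complex III, Uqcr10, a small accessory subunit, was the highest in all 4 cell types (106, 165, 137 and 52.1 CPM per kilobase). The highest member of complex I changed with the cell type: it was the accessory gene Ndufa3 in oligodendrocytes (73.7), the accessory gene Ndufc2 in OPCs (98.2) and astrocytes (140), and the core gene Ndufs8 in microglia (73.8 CPM per kilobase). The lowest was Ndufb2 in oligodendrocytes (3.12), OPCs (3.96) and astrocytes (2.43) and Ndufs5 in microglia (2.02), and the lowest of complex III was Uqcrfs1 in oligodendrocytes (7.99), Uqcr11 in OPCs (8.66) and microglia (4.11) and Uqcrb in astrocytes (11.3). Several of these orders depend on the length used. With the union of all annotated exons the highest member of complex I was Ndufa2 in oligodendrocytes and Ndufc2 in microglia, that of complex II was Sdhd in OPCs and microglia, and that of complex III was Uqcrh in all 4 cell types. The lowest member also changed, to Ndufs5 for complex I in oligodendrocytes and OPCs, Uqcr11 for complex III in oligodendrocytes and Cox7c for complex IV in astrocytes, whereas Cox4i1 stayed the highest of complex IV in every cell type.

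In nuclear CPM the summed level of the 50 members was highest in astrocytes and lowest in microglia. The sum had a lowest, median and highest value of 2739, 3044 and 3251 nuclear CPM in the 12 astrocyte libraries, 2088, 2458 and 2541 in the 11 OPC libraries, 2006, 2077 and 2254 in the 8 oligodendrocyte libraries, and 1201, 1460 and 1603 in the 12 microglia libraries. Astrocytes and microglia thus each lay apart from every other cell type, whereas OPCs and oligodendrocytes overlapped. In libraries of the same mouse, astrocytes were above each other cell type in every mouse. OPCs were above oligodendrocytes in 6 of 7 mice. The lowest cell type depended on the denominator: per 1000000 of all gene counts, mitochondrial ones included, the mean sum was 982 in oligodendrocytes (837 to 1118), 1312 in microglia (1079 to 1448), 1721 in OPCs and 1992 in astrocytes.

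The order of OPCs and oligodendrocytes depended on the scale. With TMM factors, which scale libraries so that most genes do not differ, the mean sum was 2280 in oligodendrocytes and 1908 in OPCs, and oligodendrocytes were above OPCs in 7 of 7 mice. The order of astrocytes at the top did not change, with 3091, and microglia had the lowest mean, 1677, with OPCs above microglia in 9 of 11 mice. The 33 members of complex I made up the largest part of the sum, 972 ± 57.2 nuclear CPM (SD, n = 8) in oligodendrocytes, 1285 ± 77.1 (n = 11) in OPCs, 1549 ± 119 (n = 12) in astrocytes and 690 ± 66.5 (n = 12) in microglia.

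**Figure D1:**
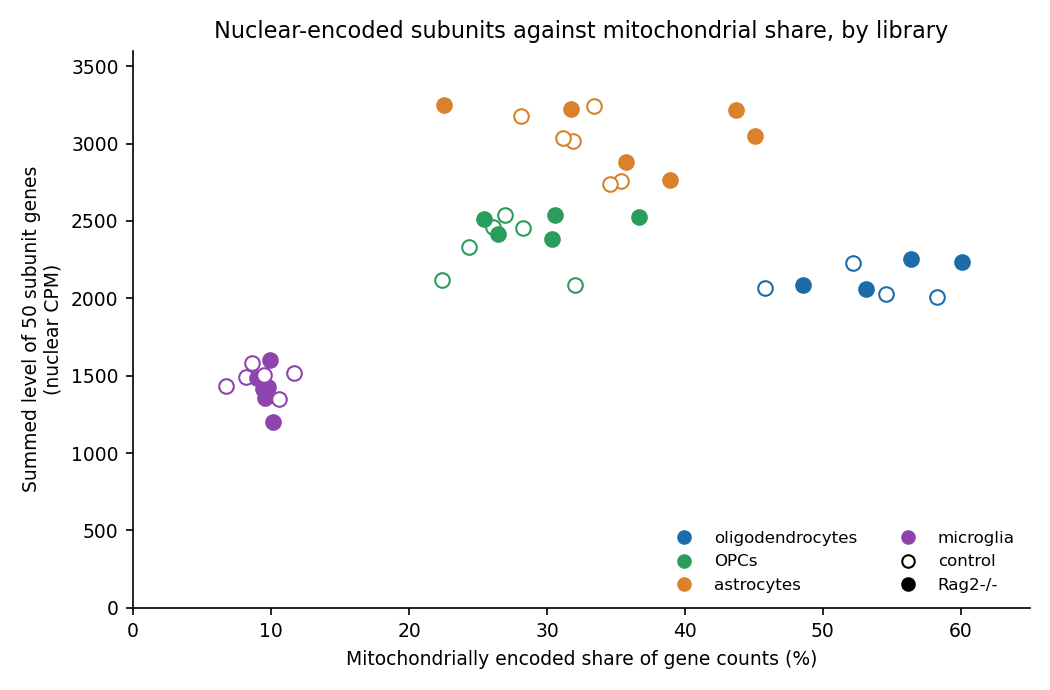
Summed nuclear CPM of the 50 members (vertical axis) against the mitochondrial share of gene counts in percent (horizontal axis), 1 point per library, coloured by cell type, open for controls and filled for Rag2-/-. Oligodendrocyte libraries lie at the highest shares, 45.8% to 60.1%, with sums below all astrocyte libraries, and microglia lie at the lowest on both axes.

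The mitochondrial share did not follow the order of the nuclear members. It was 45.8%, 53.9% and 60.1% (lowest, median and highest) in oligodendrocytes, 22.4%, 27% and 36.7% in OPCs, 22.5%, 34.0% and 45.1% in astrocytes and 6.75%, 9.53% and 11.7% in microglia. Oligodendrocytes therefore had the highest shares, with sums of nuclear members below those of astrocytes, while microglia were lowest both in share and in summed nuclear CPM. Most of the mitochondrial counts were ribosomal RNA: mt-Rnr1 and mt-Rnr2 held 85.6% to 93.9% of them in a library. The 13 mitochondrially encoded protein-coding genes, which make the partners of the nuclear subunits, held a median of 4.98% of gene counts in oligodendrocytes, 3.01% in astrocytes, 2.89% in OPCs and 1.11% in microglia.

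Within each complex built from both genomes, the counts on mitochondrially encoded subunits exceeded those on the nuclear members. For complex I the median ratio of mitochondrially encoded to nuclear member counts was 34.3 in oligodendrocytes, whereas OPCs had 9.28, astrocytes 8.66 and microglia 6.04. For complex III it was 40.3, 14.9, 13.5 and 9.55, and for complex IV 133, 65.6, 61.6 and 24.9 in the same order. The order of the cell types was thus the same in the 3 complexes, with oligodendrocytes highest and microglia lowest. The ratios leave out the nuclear subunits that were not among the members, and count all subunits of a complex together without correction for length.

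**Figure D2:**
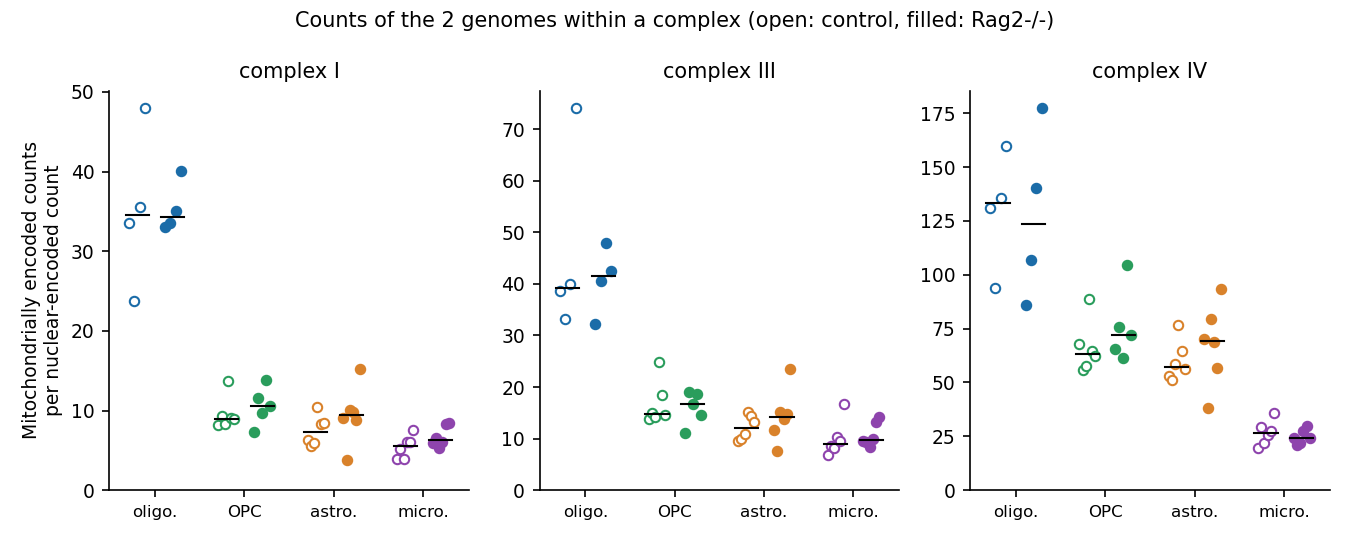
Counts on mitochondrially encoded subunits per count on nuclear member genes of the same complex (linear axis), for complexes I, III and IV, 1 point per library, open for controls and filled for Rag2-/-, with a line at the median of each group. Oligodendrocytes had the highest cell type medians, 34.3, 40.3 and 133, and microglia the lowest, 6.04, 9.55 and 24.9.

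Cell types were compared gene by gene with edgeR's quasi-likelihood test over all 43 libraries, with mouse as a block and Benjamini-Hochberg adjustment over the 18874 nuclear genes tested. Between astrocytes and microglia, 45 of the 50 members were called higher in astrocytes and 0 lower, where 38.1% of all genes were called higher and 34.2% lower. The median member was 0.95 higher on the log2 scale and the median of all genes 0.13. Between OPCs and astrocytes, 38 members were lower in OPCs and 0 higher, beside 20.1% and 22.9% of all genes. Between oligodendrocytes and astrocytes, 30 members were lower in oligodendrocytes and 1 higher, beside 26.7% and 23%. Cox4i1 was the only member called higher in another cell type than in astrocytes with TMM factors. In the 2 comparisons with astrocytes as the second cell type the median member differed by -0.63 in OPCs and -0.65 in oligodendrocytes, and the median of all genes by 0.04 and -0.12.

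The other 3 comparisons were mixed. Between OPCs and microglia, 26 members were called higher in OPCs and 1 lower, beside 38.3% and 33.5% of all genes. Between oligodendrocytes and microglia, 21 were higher in oligodendrocytes and 4 lower, beside 32.3% and 36.9%. Between oligodendrocytes and OPCs, 8 were higher in oligodendrocytes and 7 lower, beside 15% and 24.2%, with a median member difference of -0.00. With nuclear library sizes and no TMM factors, the median of all genes moved from -0.27 to -0.69 between oligodendrocytes and OPCs, from 0.04 to 0.40 between OPCs and astrocytes and from 0.10 to 0.64 between OPCs and microglia. The calls moved with it, to 3 higher and 25 lower, 1 and 19, and 44 and 0 in these 3 comparisons. Relative to the median of all genes, the median member differed by 0.26 for oligodendrocytes against OPCs, -0.67 for OPCs against astrocytes and 0.29 for OPCs against microglia with TMM factors.

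**Figure D3:**
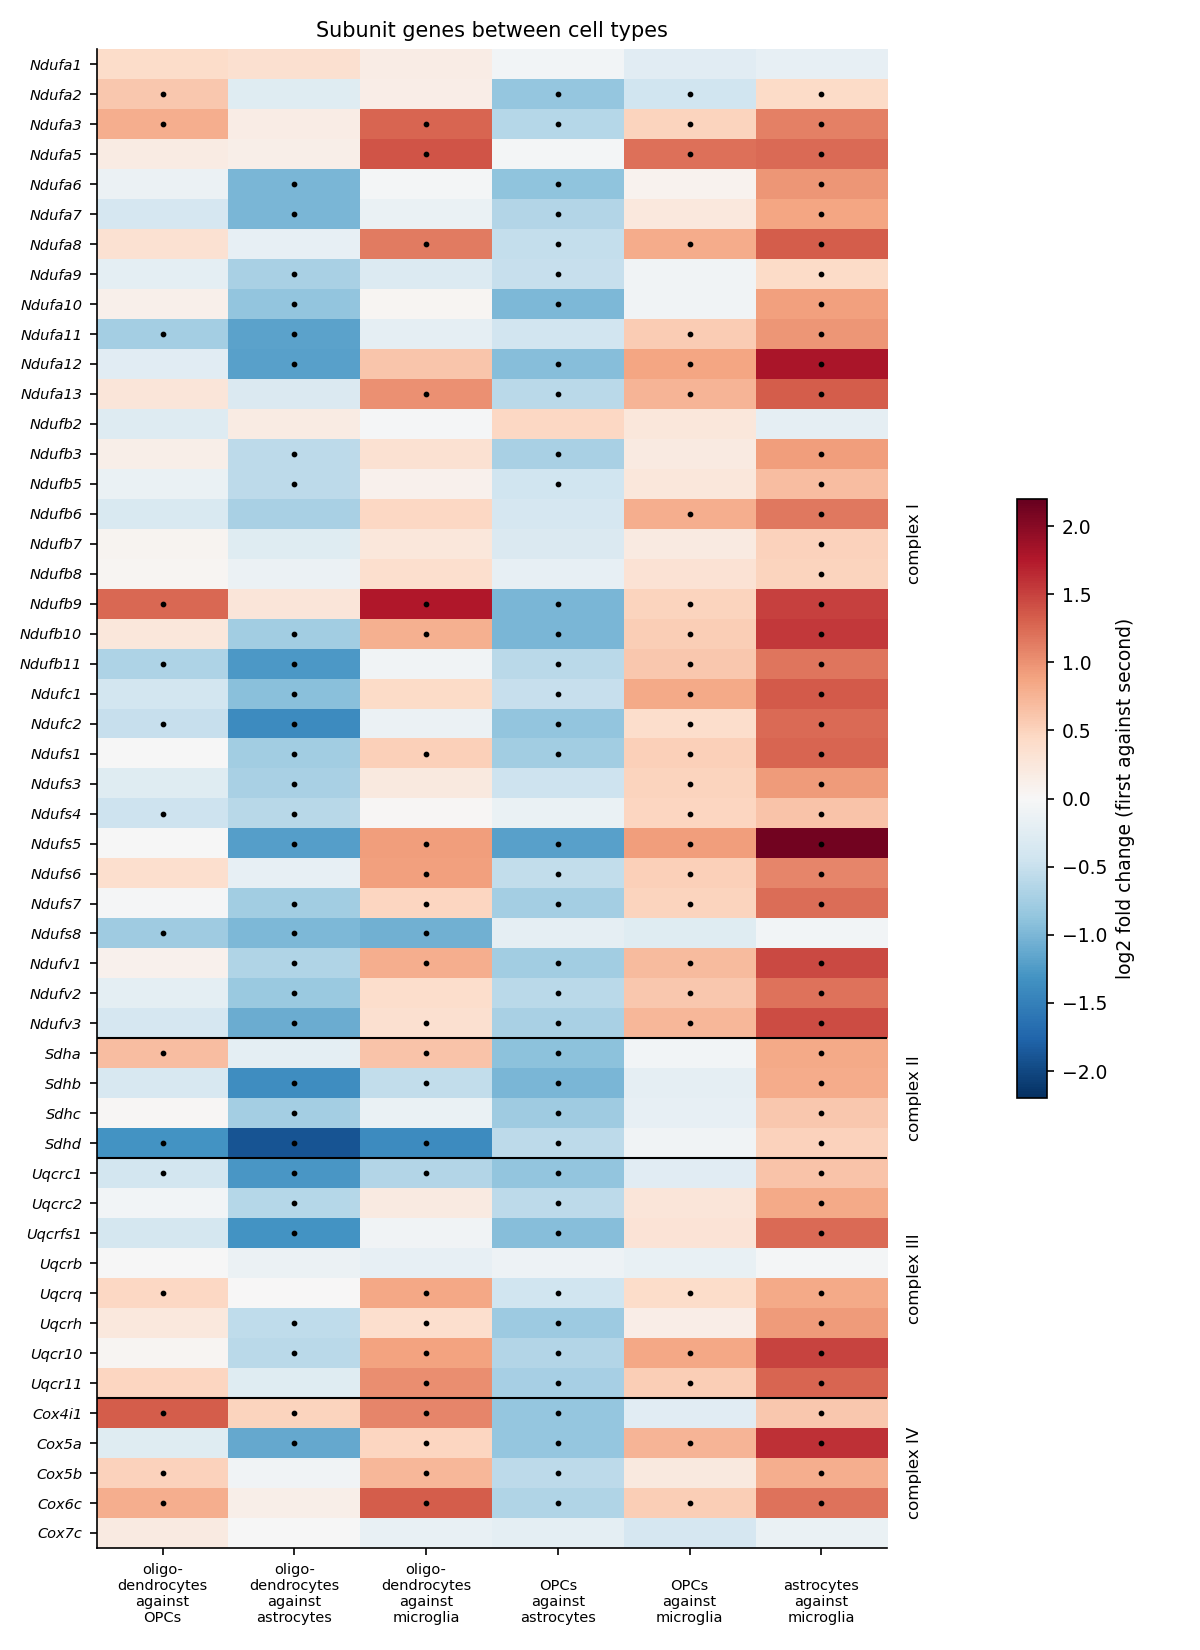
Log2 differences of the 50 members (rows, grouped by complex) in the 6 comparisons of cell types (columns), from edgeR with TMM factors, with dots on members past the adjusted p threshold of 0.05. The columns against astrocytes are almost all lower for the other cell type, and the column of oligodendrocytes against OPCs holds 8 members called higher and 7 lower.

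Complex I takes in electrons from NADH at its core subunits, which carry the flavin and the iron-sulfur clusters. Ndufs1 encodes the largest of these core subunits, with several iron-sulfur clusters. Its nuclear CPM (lowest, median and highest) was 69.9, 88.8 and 123 in astrocytes, 49.6, 65.1 and 89.5 in OPCs, 28.1, 51.8 and 82.0 in oligodendrocytes and 20.2, 34.7 and 39.6 in microglia. All astrocyte libraries were above all microglia libraries, with a log2 difference of 1.29 ± 0.118 (SE, adjusted p = 4.81e-12). Ndufv1, which encodes the subunit that binds NADH and flavin, ranged from 80.8 to 115 in astrocytes and from 22.8 to 44.5 in microglia, again without overlap (log2 difference 1.46).

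Ndufs8, whose product carries 2 iron-sulfur clusters on the path to ubiquinone, did not follow the other core genes. It had 17.6, 28.9 and 53.8 nuclear CPM in oligodendrocytes, 51.0, 71.3 and 87.3 in OPCs, 46.1, 63.1 and 78.3 in astrocytes and 47.3, 58.4 and 73.2 in microglia. Only oligodendrocytes stood low, and the other 3 cell types overlapped widely. The log2 difference of oligodendrocytes was -0.79 ± 0.152 against OPCs (adjusted p = 8.38e-05), -0.99 against astrocytes and -1.05 ± 0.149 against microglia (adjusted p = 1.28e-07). Astrocytes and microglia did not differ past the threshold (-0.07 ± 0.125, adjusted p = 0.631). Its neighbour in the electron path, Ndufs7, had 14.4, 39 and 52.4 nuclear CPM in oligodendrocytes and 17.8, 21.8 and 35.7 in microglia, and was called higher in oligodendrocytes (0.46). The median ratio of Ndufs7 to Ndufs8 within a library was 1.22 in oligodendrocytes and 1.08 in astrocytes, against 0.660 in OPCs and 0.403 in microglia. Gamt, which overlaps Ndufs7 on the other strand, had a mean of 36.7 nuclear CPM in oligodendrocytes and 4.40 in microglia, and its part in the Ndufs7 counts was not tested.

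Of the 6 core members of complex I, 5 were called higher in astrocytes than in microglia and 5 higher in OPCs than in microglia, with 0 lower, beside 38.1% and 38.3% of all genes higher. All 6 were lower in oligodendrocytes than in astrocytes, beside 26.7% of all genes. Of the accessory genes, Ndufb9, a subunit of the membrane arm, had the largest difference in favour of oligodendrocytes. It had 50.7, 62.5 and 77.1 nuclear CPM in oligodendrocytes, 29.3, 36.7 and 42.5 in OPCs, 31.4, 56.4 and 83.4 in astrocytes and 11.3, 17.2 and 21.8 in microglia. Oligodendrocytes lay above all OPC and microglia libraries and overlapped astrocytes. The log2 difference was 1.27 ± 0.162 against OPCs (adjusted p = 7.72e-08) and 1.76 ± 0.158 against microglia (adjusted p = 3.92e-12). Against microglia, astrocytes were also higher, by 1.5 ± 0.140 (adjusted p = 7.91e-12), and the difference of oligodendrocytes from astrocytes did not pass (0.26). Genes on the other strand covered 28.7% of the exonic bases of Ndufb9, and of these Mtss1 had a mean of 69.8 nuclear CPM in oligodendrocytes and 147 in OPCs, beside 47.1 in astrocytes and 89.8 in microglia. Its part in the Ndufb9 counts was not tested.

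Other accessory genes of complex I were highest in astrocytes. Ndufa13, known also as GRIM-19, had 96.5, 113 and 153 nuclear CPM in astrocytes, 81.3, 104 and 122 in OPCs, 62.1, 86.0 and 127 in oligodendrocytes and 30, 39 and 52.9 in microglia. Microglia lay below every library of the other cell types, with log2 differences of 1.33 ± 0.123 for astrocytes (adjusted p = 5.81e-12) and 0.74 ± 0.124 for OPCs (adjusted p = 2.29e-06). Ndufa10 had 102, 127 and 175 in astrocytes and 73.1, 83.0 and 97.2 in OPCs, which did not overlap (-0.99 ± 0.104 for OPCs, adjusted p = 7.05e-10). Ndufc2, a subunit of the membrane arm, had 78.4, 94.6 and 119 in astrocytes and 15.5, 36.9 and 48.9 in oligodendrocytes, again without overlap (-1.38 ± 0.169 for oligodendrocytes, adjusted p = 1.82e-08). Ndufv3 was higher in OPCs than in microglia (0.73 ± 0.138, adjusted p = 1.57e-05), and Ndufb11, a subunit of the membrane arm, was lower in oligodendrocytes than in OPCs (-0.67 ± 0.163, adjusted p = 0.00118).

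A few accessory genes did not show the astrocyte excess. Ndufb2 had 3.75, 10.2 and 20.4 nuclear CPM in astrocytes and 10.0, 16.6 and 31.3 in OPCs, and it had the largest positive difference of OPCs against astrocytes, 0.46 ± 0.254 (adjusted p = 0.150). Against microglia, astrocytes differed in it by -0.20. Ndufa1 ranged from 8.57 to 24.2 nuclear CPM over all libraries and was called in none of the 6 comparisons, with 0.35 for oligodendrocytes against astrocytes and -0.18 for astrocytes against microglia. The last of these changed sign without TMM factors. Ndufa2 was the only member called lower in OPCs than in microglia (-0.44 ± 0.174, adjusted p = 0.0230), although its median was 21.9 nuclear CPM in OPCs and 19.4 in microglia. Without TMM factors its difference was 0.10 in the other direction, so the call belongs to the scale. Over complex I as a whole, 30 of 33 members were called higher in astrocytes than in microglia and 0 lower, beside 38.1% and 34.2% of all genes. In oligodendrocytes against OPCs 3 were called higher and 5 lower, beside 15% and 24.2%.

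Complex II joins the citric acid cycle to the chain and has 4 subunits, all among the members. In oligodendrocytes, Sdha was called higher than in OPCs and microglia while Sdhd was called lower than in both. Sdha had 174, 226 and 357 nuclear CPM in oligodendrocytes, 177, 210 and 256 in OPCs, 257, 311 and 331 in astrocytes and 78.7, 150 and 211 in microglia. Oligodendrocytes overlapped both OPCs and microglia, and they were called higher than each with TMM factors, by 0.68 ± 0.13 (adjusted p = 7.22e-05) and 0.62. The call against OPCs was not among those that held without TMM factors. Sdha was lower in OPCs than in astrocytes (-0.90 ± 0.114, adjusted p = 3.80e-08).

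Sdhd, which encodes a membrane anchor of complex II, had 5.81, 22.2 and 34.4 nuclear CPM in oligodendrocytes, 40.8, 71.5 and 95.0 in OPCs, 56.1, 75.6 and 110 in astrocytes and 21.6, 50.1 and 70.0 in microglia. All oligodendrocyte libraries were below all OPC and astrocyte libraries and overlapped 1 microglia library, the control of pair 1. The log2 difference was -1.31 ± 0.237 against OPCs (adjusted p = 3.33e-05), -1.90 ± 0.240 against astrocytes (adjusted p = 3.45e-08) and -1.38 ± 0.236 against microglia (adjusted p = 3.73e-06). Sdhb had 15.8, 26.0 and 49.9 in oligodendrocytes, 32.3, 49.1 and 66.4 in OPCs, 51.2, 76.7 and 90.5 in astrocytes and 30.7, 36.2 and 49.8 in microglia. It was lower in oligodendrocytes than in astrocytes (-1.36 ± 0.174, adjusted p = 4.37e-08) and microglia (-0.55 ± 0.170, adjusted p = 0.00516), and did not pass against OPCs (-0.35 ± 0.174, adjusted p = 0.105).

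The balance of the 4 complex II genes within a library therefore varied with the cell type. The median ratio of Sdha to Sdhd counts was 10.8 in oligodendrocytes, with a range of 5.52 to 43.4, whereas it was 4.05 in astrocytes, 3.21 in OPCs and 2.99 in microglia. It was 36.6 and 28 in the control and Rag2-/- oligodendrocytes of pair 5, 43.4 in the control of pair 6 and 5.52 to 13.7 elsewhere. Neuron markers summed to 2822, 3056 and 4051 nuclear CPM in these libraries. They summed to 2976 in the Rag2-/- mouse of pair 6 and 798 to 1571 in pairs 1 and 3. Their part was not tested. The ratio of Sdha to Sdhb was 9.79 in oligodendrocytes and between 4.09 and 4.23 in the other 3. Sdhc, the other anchor gene, had medians of 52.5 nuclear CPM in oligodendrocytes, 62.6 in microglia, 81.1 in OPCs and 104 in astrocytes, and with TMM factors it differed by 0.03 between oligodendrocytes and OPCs. Such ratios within a library do not depend on the scaling between libraries. No 50-base window of Sdha or Sdhd had a copy elsewhere in the genome.

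**Figure D4:**
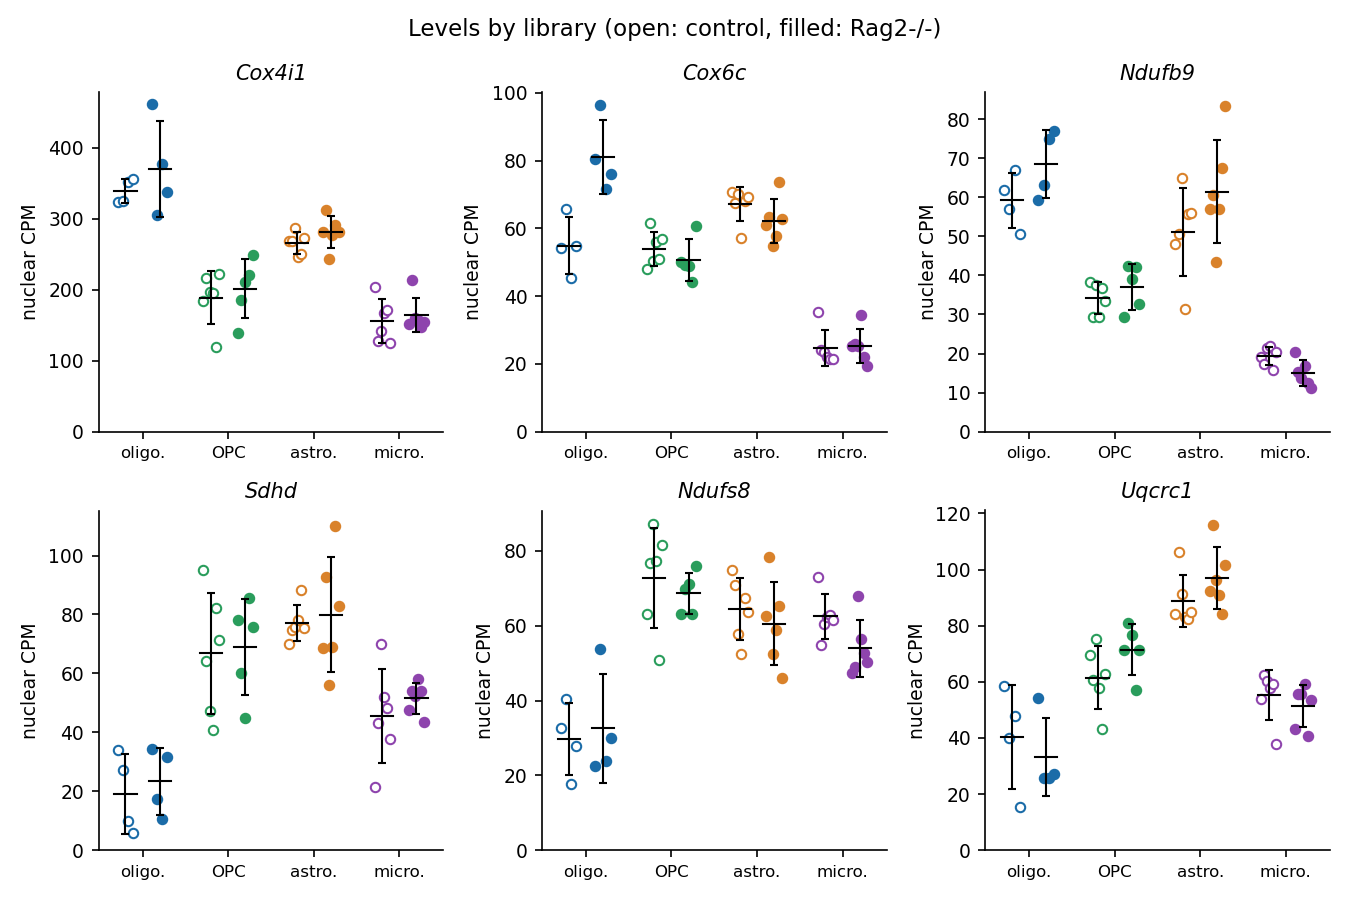
Nuclear CPM of Cox4i1, Cox6c, Ndufb9, Sdhd, Ndufs8 and Uqcrc1 in each library, by cell type, open for controls and filled for Rag2-/-, with lines at the mean of each group and bars of 1 SD. Cox4i1 was highest in oligodendrocytes (306 to 461), whereas Sdhd (5.81 to 34.4) and Ndufs8 (17.6 to 53.8) were lowest there.

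Complex III hands electrons from ubiquinol to cytochrome c through the Rieske protein, which Uqcrfs1 encodes. Uqcrc1, a core subunit that faces the matrix, had 82.3, 91.2 and 116 nuclear CPM in astrocytes, 43, 69.7 and 81.1 in OPCs, 38.0, 55.6 and 62.4 in microglia and 15.2, 33.4 and 58.7 in oligodendrocytes. Astrocytes were above every library of the other 3 cell types. Oligodendrocytes were lower than astrocytes by -1.28 ± 0.159 (adjusted p = 2.56e-08), than microglia by -0.65 ± 0.156 (adjusted p = 4.30e-04) and than OPCs by -0.40 on the log2 scale. Its partner Uqcrc2 had medians of 77.5, 64.8, 38.5 and 42.0 in the same order and was not called between oligodendrocytes and microglia (0.21). Of the 4 members lower in oligodendrocytes than in microglia, Uqcrc1 was the one without the ETS letters, and it had the NRF1 letters after its start.

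Of the small subunits of complex III, Uqcr10, Uqcr11 and Uqcrq were called lower in microglia than in each other cell type. Uqcr10 had 12.9, 23.7 and 30.5 nuclear CPM in microglia and 39.9, 60.0 and 81.6 in OPCs, without overlap (0.84 ± 0.152 for OPCs, adjusted p = 7.73e-06). Uqcrh, the acidic hinge protein that helps cytochrome c bind, had 94.6, 130 and 164 in astrocytes and 54.5, 93.3 and 119 in OPCs, and was lower in OPCs (-0.79 ± 0.112, adjusted p = 3.18e-07), where its difference from microglia did not pass (0.14 ± 0.111, adjusted p = 0.258). Uqcrb was the member of complex III not called between astrocytes and microglia (-0.05), nor did oligodendrocytes (-0.17) or OPCs (-0.16) pass against microglia, and it was also one of the genes with many copies of its sequence. Uqcrfs1 itself had a median of 43 in astrocytes, 32.5 in OPCs, 17.4 in oligodendrocytes and 16.5 in microglia.

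Complex IV was the exception to the order of the cell types. Its 5 members summed to 474 ± 54.8 nuclear CPM (SD, n = 8) in oligodendrocytes, 403 ± 25.6 (n = 12) in astrocytes, 303 ± 40 (n = 11) in OPCs and 221 ± 29.8 (n = 12) in microglia. The oligodendrocyte libraries ranged from 426 to 595 and the astrocyte libraries from 356 to 441, so the ranges overlapped between 426 and 441. Cox4i1 carried this sum, with 306, 344 and 461 nuclear CPM in oligodendrocytes, 243, 275 and 313 in astrocytes, 119, 197 and 249 in OPCs and 125, 156 and 213 in microglia. Oligodendrocytes were above every OPC and microglia library and overlapped astrocytes. The log2 difference was 1.33 ± 0.137 against OPCs (adjusted p = 9.16e-10), 1.07 ± 0.132 against microglia (adjusted p = 7.27e-09) and 0.48 ± 0.132 against astrocytes (adjusted p = 0.00265). Against microglia, OPCs differed by -0.25 ± 0.119 (adjusted p = 0.0548), which did not pass. Without TMM factors this difference had the other sign and passed the threshold, so its direction belongs to the scale. Emc8 covered 16.4% of the exonic bases of Cox4i1 from the other strand. Its mean nuclear CPM was 60.2 in oligodendrocytes, 125 in astrocytes, 48.6 in OPCs and 21.7 in microglia, and its part in the Cox4i1 counts was not tested. Cox4i1 was 16.7% of the member counts in oligodendrocytes and between 8.09% and 11.1% in the other cell types.

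Cox6c, a small subunit of complex IV, had 45.2, 68.7 and 96.4 nuclear CPM in oligodendrocytes, 54.7, 65.5 and 73.7 in astrocytes, 44.1, 50.2 and 61.5 in OPCs and 19.3, 23.8 and 35.2 in microglia. All other libraries were above those of microglia. Oligodendrocytes were higher than OPCs by 0.80 ± 0.142 (adjusted p = 2.78e-05) and than microglia by 1.33 ± 0.139 (adjusted p = 1.60e-10), and the difference from astrocytes did not pass (0.14). Vps13b, which covered 4.79% of its exonic bases from the other strand, had means of 155 nuclear CPM in oligodendrocytes, 127 in astrocytes, 147 in OPCs and 96.9 in microglia, and its part was not tested. Cox5a, another subunit around the core, had 4.86, 7.54 and 12.4 in oligodendrocytes and 11.1, 18.8 and 25.2 in astrocytes, and was lower in oligodendrocytes by -1.13. It was higher in oligodendrocytes than in microglia (0.48 ± 0.194, adjusted p = 0.0295) and did not pass against OPCs (-0.27). Cox7c, with many copies of its sequence, did not pass against microglia in OPCs (-0.37) or astrocytes (-0.15). Both differences changed sign without TMM factors. The median ratio of Cox4i1 to Cox5a was 43.6 in oligodendrocytes, 29.0 in microglia, 15.9 in OPCs and 14.9 in astrocytes.

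Calls that held both with and without TMM factors leave the same outline. Between oligodendrocytes and OPCs, Cox4i1, Cox6c and Ndufb9 were higher in oligodendrocytes under both, and Ndufa11, Ndufb11, Ndufc2, Ndufs4, Ndufs8, Sdhd and Uqcrc1 were lower under both. Between oligodendrocytes and microglia all 21 higher and all 4 lower members kept their call, as did the 26 higher members between OPCs and microglia and the 45 between astrocytes and microglia. Of the 38 members lower in OPCs than in astrocytes, 19 kept it. No member was called in opposite directions.

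Other genes of oxidative metabolism were read beside the members. In these comparisons 38.1% of all genes were called higher and 34.2% lower in astrocytes than in microglia, 20.1% lower in OPCs than in astrocytes, and 23% higher and 26.7% lower in oligodendrocytes than in astrocytes. Of 17 genes of ATP synthase tested, 12 were higher and 1 lower in astrocytes than in microglia, and 12 were lower in OPCs than in astrocytes with 0 higher. Among 16 further subunits of complexes III and IV and of complex I that were not members, 10 were higher and 2 lower in astrocytes than in microglia. In oligodendrocytes against astrocytes 4 of them were higher and 7 lower. Cox6a1, another subunit of complex IV, was higher in oligodendrocytes than in OPCs by 1.63 ± 0.107 (adjusted p = 1.38e-14), as Cox4i1 was. Assembly factors, which help to build the complexes and are not part of them, had 19 higher and 1 lower of 40 in astrocytes against microglia, and 1 higher and 15 lower in oligodendrocytes against astrocytes. In OPCs against astrocytes 1 was higher and 8 lower, beside 22.9% and 20.1% of all genes. Of 17 regulators of mitochondrial biogenesis, 4 were higher and 5 lower in astrocytes than in microglia. Ppargc1a, the coactivator PGC-1α, was higher by 6.69 ± 0.288 in astrocytes than in microglia. Citrate synthase (Cs), 1 of 17 genes of other mitochondrial proteins, was higher in astrocytes than in microglia by 2.42 on the log2 scale and lower in oligodendrocytes than in astrocytes by -1.75. Of these 17 genes, 2 were called higher and 9 lower in oligodendrocytes than in astrocytes. Tomm20 was among the higher ones (0.73 ± 0.139, adjusted p = 4.64e-05 in edgeR).

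The question of the study was whether the lack of lymphocytes changes glia. With DESeq2, the paper reported more genotype differences in oligodendrocytes than in the other cell types, most of them lower in Rag2-/- mice. Here, Rag2-/- and control libraries were compared within each cell type with edgeR's quasi-likelihood test, with sex as a covariate. In oligodendrocytes, 0 of 50 members were called, and 0% of all genes. In OPCs 0 of 50 members were called (0.00592% of all genes), in astrocytes 0 of 50 (0.00684%) and in microglia 0 of the 49 tested (0.00668%). At an unadjusted p under 0.05, 0, 2, 0 and 0 members were found in oligodendrocytes, OPCs, astrocytes and microglia, beside 3.44%, 3.98%, 2.82% and 2.90% of all genes, so the 2 in OPCs (4% of 50) were at the share of all genes, and DESeq2 called 0 members in each. The fitted log2 differences of the members ranged from -0.97 to 0.85 in oligodendrocytes, where the median SE was 0.466, from -0.54 to 0.46 in OPCs (0.187), from -0.29 to 0.46 in astrocytes (0.162) and from -0.43 to 0.26 in microglia (0.191). Of the members tested, 41, 48, 50 and 49 lay within 0.5 of 0.

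**Figure D5:**
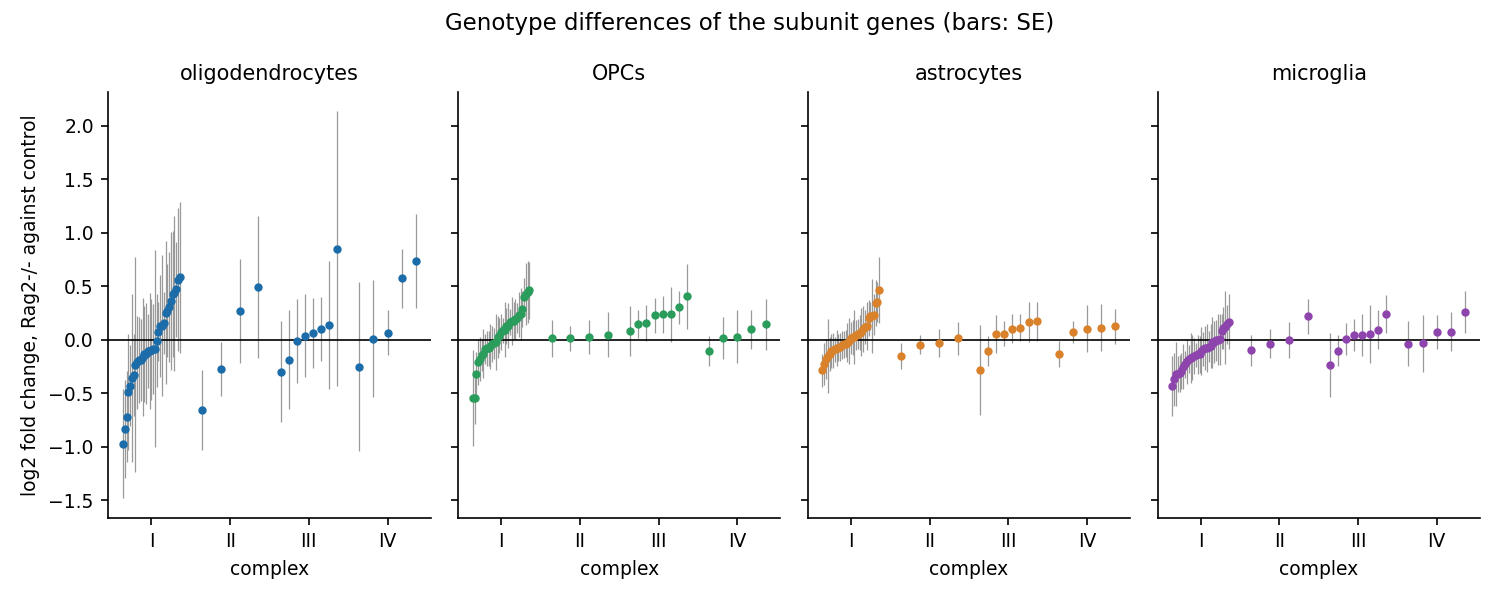
Log2 difference of Rag2-/- against control for each member, sorted within complexes I to IV, in each cell type, from edgeR with bars of 1 SE. The points spread on both sides of 0, most widely in oligodendrocytes (-0.97 to 0.85), and 0 members passed the adjusted p threshold.

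The summed level of all 50 members overlapped between genotypes in each cell type. In oligodendrocytes the lowest and highest sums were 2006 and 2228 nuclear CPM in 4 controls and 2062 and 2254 in 4 Rag2-/- mice, and the Rag2-/- mouse was the higher in 4 of 4 pairs, by a median of 30.2. The largest difference, 230, was in pair 6, whose mice differ in sex. With TMM factors the Rag2-/- mouse of pair 5 was the lower, at 2450 against 2638 in its control. Neuron markers in the oligodendrocyte libraries had positive genotype differences for 0 of 8 and astrocyte markers for 1 of 8 (medians -0.59 and -0.57), mural markers for 0 of 4, and 0 of them were called. In OPCs controls ranged from 2088 to 2538 and Rag2-/- from 2383 to 2541, with 4 of 5 pairs higher. Astrocyte markers in the OPC libraries had positive genotype differences for 7 of 8, with 6 at an unadjusted p under 0.05 and 0 called (median 0.53). The differences of 5 of 5 endothelial and 5 of 5 mural markers were also positive, with 0 called. The part of these markers' cells in the sums was not tested. Astrocyte controls ranged from 2739 to 3240 and Rag2-/- from 2765 to 3251, with 4 of 6 pairs higher, and microglia from 1353 to 1584 and from 1201 to 1603, with 1 of 6 higher. In nuclear CPM, the sum of the 5 complex IV members in oligodendrocytes was the 1 sum without overlap among 20, the 5 sums (all members and each complex) in 4 cell types. It was 426, 443, 437 and 448 nuclear CPM in the controls of pairs 1, 3, 5 and 6 and 595, 463, 506 and 477 in their Rag2-/- littermates. It was given no test.

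Single members with the smallest p-values did not pass the adjustment. Cox6c in oligodendrocytes had 54.1, 65.7, 45.2 and 54.7 nuclear CPM in controls of pairs 1, 3, 5 and 6, and 80.4, 96.4, 71.6 and 76.0 in their Rag2-/- littermates. Cox6c was the only member whose 4 Rag2-/- values were all above the 4 control values, 1 of 50, beside 0.983% of all genes tested, with a log2 difference of 0.58 ± 0.276 (SE, unadjusted p = 0.0588, adjusted p = 0.998 in edgeR). Ndufa7, an accessory subunit of complex I, had 23, 33.2, 20.9 and 35.3 in the same controls and 19.9, 19.8, 10.4 and 10.3 in the Rag2-/- mice. It was the only member whose 4 Rag2-/- values were all below the 4 control values, 1 of 50, beside 1.21% of all genes, with a log2 difference of -0.83 that did not pass. In OPCs, Ndufb10 (0.40 ± 0.176, unadjusted p = 0.0361) and Ndufb2 (-0.54 ± 0.241, unadjusted p = 0.0395) had the smallest p-values, and in both the adjusted p in edgeR was 1.00.

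The other members with the 3 smallest p-values in either direction had the following log2 differences of Rag2-/- against control, none of which passed even at an unadjusted p under 0.05. Oligodendrocytes had 0.74 for Cox5b, a complex IV subunit around the core, and 0.47 for Ndufc2, against -0.97 for Ndufa2 and -0.65 for Sdhc. OPCs had 0.30 for Uqcrh and 0.46 for the accessory gene Ndufc1, against -0.32 for Ndufs3, a core subunit of complex I, and -0.54 for Ndufs5. For Ndufs5 the OPC control of pair 5 stood apart, with 10.1 nuclear CPM against 1.22 to 4.44 in the other OPC libraries. In astrocytes Ndufa7 (0.35), Ndufc1 (0.34) and Ndufa13 (0.22) stood against Ndufb5 (-0.29), an accessory subunit of the membrane arm, Ndufs3 (-0.23) and Sdhb (-0.15). Microglia had 0.24 for Uqcrfs1, 0.26 for Cox7c and 0.22 for Sdhd, against -0.32 for Ndufv1, -0.31 for Ndufs4 and -0.23 for the accessory gene Ndufa9. Ndufc1 and Ndufs3 were thus in this group in both OPCs and astrocytes, with the same sign in each. In oligodendrocytes Ndufc1 had 0.13 and Ndufs3 0.44, and in microglia they had -0.37 and 0.00.

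Whether the effect of genotype differed between cell types was tested with the interaction of both terms. No member passed (0 of 50, with 0 called by DESeq2), and 0.0318% of all genes did. At an unadjusted p under 0.05 there was 1 member (2%), beside 6.74% of all genes. The smallest p among the members was that of Ndufa7 (unadjusted p = 0.00441, adjusted p = 0.404 in edgeR), whose difference was -0.83 in oligodendrocytes and 0.35 in astrocytes. Cox6c (unadjusted p = 0.0601) and Ndufv3 (unadjusted p = 0.0706) followed, with adjusted p = 0.774 and 0.798 in edgeR.

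The mitochondrial share was compared between genotypes by exact permutation of libraries, with no term for sex or littermate pair. Rag2-/- mice had the higher share in most pairs, within the spread. The sign of the mean difference turned in 2 cell types when 1 library was left out, which also breaks its littermate pair. In oligodendrocytes it was 52.7% ± 5.24 (SD, n = 4) in controls and 54.5% ± 4.89 (n = 4) in Rag2-/- mice, a difference of 1.81 percentage points (exact two-sided permutation p = 0.629), with 3 of 4 pairs higher. The difference turned to -0.49 without the control of pair 3 and to -0.04 without the Rag2-/- mouse of pair 6. In pair 3 itself the share was 45.8% in the control and 48.5% in its Rag2-/- littermate. In OPCs it was 26.7% ± 3.32 (n = 6) and 29.9% ± 4.44 (n = 5), with an exact permutation p = 0.212 and 4 of 5 pairs higher, and the difference of 3.22 points ranged down to 1.52 without 1 library. In astrocytes it was 32.4% ± 2.64 and 36.3% ± 8.35 (n = 6 each, exact permutation p = 0.305, 5 of 6 pairs higher). Without the Rag2-/- mouse of pair 2 the difference of 3.87 points became 6.62, the largest on leaving out each library (exact permutation p = 0.0346). That mouse was the only Rag2-/- mouse below its littermate (22.5% against 28.1%), so the p without it depends on the outcome and decides nothing. In microglia it was 9.22% ± 1.75 and 9.62% ± 0.413 (n = 6 each, exact permutation p = 0.604, 4 of 6 pairs higher), and the difference of 0.405 points turned to -0.088 without the control of pair 3.

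Sex was the other term of the same fits. For females against males, 0 members were called for oligodendrocytes (0.0362% of all genes), OPCs (0.0296%), astrocytes (0.041%) and microglia (0.0468%), and DESeq2 also called 0. At an unadjusted p under 0.05 there were 3, 5, 6 and 1 members in the same order, or 6%, 10%, 12% and 2.04%, beside 8.25%, 4.25%, 6.78% and 4.00% of all genes. The fitted differences were positive for 38 of 50 members in oligodendrocytes, 24 of 50 in OPCs and 17 of 49 in microglia, beside 6685 of 13831, 8217 of 16906 and 7371 of 14972 genes. In astrocytes 43 of 50 fitted differences were positive, beside 7159 of 14630 over all genes. They lay between -0.23 and 0.42, and the smallest p was that of Sdhd (0.37 ± 0.131, unadjusted p = 0.0119, adjusted p = 0.705 in edgeR). Markers of other cell types had mostly negative fitted differences by sex in the astrocyte libraries: 0 of 8 oligodendrocyte, 0 of 8 microglia, 0 of 8 neuron and 1 of 8 OPC markers had positive differences, with medians of -0.32, -0.85, -0.38 and -0.92, and 0 of them were called. Their part in the members' differences was not tested. In oligodendrocytes, with 3 females and 5 males, the differences ranged from -0.89 to 1.83, the last for Ndufb2. Its nuclear CPM was 45.0 in the Rag2-/- female of pair 5, 11.6 and 17.8 in the other females and 5.71 to 8.53 in males. The part of the overlapping gene Braf in these counts was not tested. In these libraries 8 of 8 neuron markers (4 at an unadjusted p under 0.05) and 4 of 4 mural markers had positive differences, with 0 called. Their part in the oligodendrocyte values was not tested either. In the OPC libraries 8 of 8 oligodendrocyte markers had positive differences by sex (median 1.20, 3 at an unadjusted p under 0.05). Microglia markers there had 0 of 8 positive (median -0.54), 0 of either list were called, and their part was not tested.

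Among members with the 3 smallest p-values by sex in either direction, oligodendrocytes also had 1.17 for Ndufv1 and 0.98 for Uqcrc2, against -0.68 for Ndufb11, -0.59 for Ndufa7 and -0.44 for Ndufa10. OPCs had 1.09 for Ndufs5, 0.39 for Ndufs4 and 0.38 for Ndufa1, against -0.78 for Ndufb6 and -0.62 for Ndufb7, both accessory subunits of the membrane arm, and -0.41 for Sdhc. The Ndufs5 value leans on 1 female, the control of pair 5, with 10.1 nuclear CPM against 1.22 to 4.44 in the other OPC libraries. In astrocytes Sdhb (0.31) and Ndufa11 (0.39) came after Sdhd, and the negative ones were Ndufb2 (-0.23), Sdha (-0.05) and Ndufa10 (-0.05). Microglia had 0.32 for Ndufb2, 0.11 for Sdha and 0.11 for Uqcrc2, against -0.36 for Ndufv2, a core subunit with an iron-sulfur cluster, -0.36 for Ndufb9 and -0.25 for Ndufa9. Ndufb2 thus had a positive difference in oligodendrocytes and microglia and a negative one in astrocytes, and 0 of these differences were called.

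Within a cell type, nuclear members could also be set against the mitochondrial ratio of each library, the log2 ratio of mitochondrially encoded to nuclear counts, with sex and genotype in the fit. In oligodendrocytes, OPCs and astrocytes 0 members had a slope past the threshold, as did 0%, 0% and 0% of all genes, with 0 called by DESeq2. At an unadjusted p under 0.05 there were 1, 3 and 4 members (2%, 6% and 8%), beside 7.85%, 7.13% and 8.71% of all genes. In microglia 1 of 49 members passed the threshold, beside 0.347% of all genes, and 8 (16.3%) had an unadjusted p under 0.05, beside 13.7%. That gene was Sdhd, with a slope of -1.36 ± 0.298 on the log2 scale per doubling of the ratio (adjusted p = 0.0492 in edgeR). In microglia 7 of 7 OPC, 6 of 7 neuron and 4 of 4 mural markers had positive slopes (medians 2.44, 1.51 and 1.41). Of these 0 were called, and 1 of 6 oligodendrocyte markers was called higher. In oligodendrocytes 0 of 8 OPC, 0 of 8 microglia and 8 of 8 neuron markers had positive slopes (medians -2.47, -2.55 and 1.93), with 0 called. The part of these markers' cells was not tested.

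The microglia values behind the Sdhd slope were 21.6, 43.1, 70.0, 52.0, 48.3 and 37.8 nuclear CPM in controls of pairs 1 to 6, and 47.7, 54.0, 52.2, 58.3, 54.1 and 43.3 in the Rag2-/- mice. The control of pair 1 had the lowest Sdhd and the highest mitochondrial share of the microglia libraries, 11.7%, and the control of pair 3 the highest Sdhd and the lowest share, 6.75%. Leaving out the first gave a slope of -1.10 (adjusted p = 0.148) and leaving out the second -1.62 (adjusted p = 0.374), and the call was lost without any 1 of the 12 libraries. It was also lost with the littermate pair as a block (-1.20, adjusted p = 0.432), where 1 gene in all was called against 52. Sdha had the next smallest p, with a slope of -1.07 ± 0.287 (adjusted p = 0.105). Ndufa13 (1.12), Ndufc2 (1.33) and Ndufb7 (1.09) had fitted slopes of the opposite sign that did not pass either, and the next negative slope was that of Ndufv1 (-0.50).

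In the other cell types the members with the 3 smallest p-values in either direction had slopes that did not pass. Oligodendrocytes had 3.44 for Uqcrb, 1.27 for Ndufc2 and 0.99 for Ndufa10, against -3.08 for Ndufs3, -1.5 for Ndufs7 and -1.26 for Ndufb7. OPCs had 0.78 for Cox4i1, 0.85 for Uqcr11 and 0.48 for Sdhc, against -0.98 for Ndufb2, -0.96 for Cox7c and -1.44 for Ndufs5. The OPC control of pair 5 had both the highest Ndufs5 (10.1 nuclear CPM) and the lowest mitochondrial share, 22.4%. In astrocytes Uqcrb (1.48), Ndufc1 (0.37) and Ndufa2 (0.24) stood against Ndufb8 (-0.75), an accessory subunit of the membrane arm, Ndufb5 (-0.48) and Ndufs8 (-0.48). The slope of Ndufb7 was negative in oligodendrocytes and positive in microglia, and its difference between cell types was not tested.

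The members were also compared from mouse to mouse within a cell type. Over pairs of members, the median correlation across the libraries of a cell type, after group means were removed, was 0.01 in oligodendrocytes (8 libraries), 0.09 in OPCs (11), 0.21 in astrocytes (12) and 0.21 in microglia (12), beside 0.04, 0.015, 0.035 and 0.07 over pairs of all genes. The correlations share libraries and depth, and they are given as a description.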

How the data were processed

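The authors amplified cDNA from immunopanned cells, sequenced read pairs of 50 bases, aligned them to GRCm39 (STAR 2.7.8a) and used HTSeq to count Ensembl genes. The deposited values are whole-number counts per gene for 55416 genes, without normalization, and reads that met no gene (33.5% to 52.0% of a library) were left out here. GENCODE M39 named 54749 of the identifiers. The 37 mitochondrially encoded genes were removed before nuclear CPM, library sizes and TMM factors were computed.

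Genes past edgeR's filterByExpr (minimum count 10, total 15) were tested with edgeR 4.0.16 in R 4.3.3, two-sided, with a threshold of 0.05 on the adjusted p. Within a cell type the terms were sex and genotype, with the log2 mitochondrial ratio added for slopes, and between cell types mouse and cell type. The genotype and slope fits of each cell type and the comparison of oligodendrocytes with OPCs were tested on simulated data. The sex term, the interaction and the other comparisons of cell types were not. Single values were compared by exact permutation of libraries (scipy 1.17.1). Python 3.11.15, numpy 2.4.6, pandas 2.3.3 and matplotlib 3.10.9 made the values and plots.

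The members and gene lists were chosen with earlier results of these data known. The text names the members with the 3 smallest p-values in either direction of a comparison (most of those that did not pass with the log2 difference or slope alone), the highest and lowest of each complex per kilobase, and others to complete a complex. Alternatives were DESeq2 1.42.0, DESeq2's size factors, no or another filter, mitochondrial genes kept in or limited to the 13 protein-coding ones, no TMM factors, other covariates, heterozygous controls alone, the littermate pair as a block, and each library or pair left out. The study describes numbered pairs as littermates, and deviations from group means correlated by a mean of 0.103, 0.0757, 0.130 and 0.0817 within pairs in oligodendrocytes, OPCs, astrocytes and microglia, against -0.03, -0.01, -0.02 and -0.02 between pairs. Libraries of a group came from separate mice.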

Additional observations from a re-analysis of the deposited data

Results flagged for a closer look

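Of 224 sets of values of a group, 15 held a library far from the others, and chance gives about 1 in 20. Ratios of mitochondrially encoded to nuclear member counts were high in the OPC control of pair 4, at 13.7 for complex I (nearest library 9.28) and 88.7 for complex IV (68.0). For complex III they were high in the control of pair 6 in oligodendrocytes (74.1, nearest 40) and in microglia (16.8, nearest 10.2). Cox4i1 was low in the OPC control of pair 5 (119 nuclear CPM, nearest 184) and high in the microglia Rag2-/- mouse of pair 2 (213, nearest 160). Cox6c was low in the astrocyte control of pair 4 (57.3, nearest 67.6) and high in the microglia control of pair 1 (35.2, nearest 24.1), which also had a high Ndufc2 (60.4, nearest 38.5).

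In astrocytes, Ndufa1 was low in the control of pair 1 (9.55, nearest 13.2) and Ndufa10 high in its Rag2-/- littermate (175, nearest 134). Uqcr10 was high in the oligodendrocyte Rag2-/- mouse of pair 6 (94.9, nearest 39.3). Uqcrc1 was high in the oligodendrocyte Rag2-/- mouse of pair 1 (54.3, nearest 27) and the astrocyte control of pair 2 (106, nearest 91.3), and low in the microglia control of pair 6 (38.0, nearest 54.0).

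Ndufv3, an accessory subunit of complex I, went in opposite directions by genotype in all pairs of oligodendrocytes and of OPCs. The gene was flagged for this pattern after the data were seen. The share of all genes with the same pattern was not counted, so the pattern cannot be set against chance. The mean pair difference, Rag2-/- minus control, was -9.71 nuclear CPM in oligodendrocytes, lower in 4 of 4 pairs, and 10.7 in OPCs, higher in 5 of 5 pairs. The OPC differences ranged from 1.19 to 29.0, and without pair 4, whose control had 26.3, their mean was 6.09. With the control of pair 5, which has no OPC littermate, the difference of group means was 8.85, and both of these values were chosen after seeing the data. In the same OPC libraries 7 of 8 astrocyte markers had positive genotype differences (median 0.53), and in oligodendrocytes 0 of 8 neuron and 1 of 8 astrocyte markers did (medians -0.59 and -0.57), with 0 called. The log2 difference of Ndufv3 in OPCs against astrocytes was -0.71. The part of these markers' cells was not tested. The difference between these 2 cell types alone was not tested, and the edgeR test over all 4 gave an unadjusted p = 0.0706 and an adjusted p = 0.798.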

How the results depend on the processing

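Genotype and sex calls of members were 0 under each alternative run, and with the littermate pair as a replicate block 0 members were called for genotype in each cell type. Between oligodendrocytes and OPCs, 5 members were higher with no filter, and with nuclear library sizes alone 3 were higher and 25 lower. Between OPCs and astrocytes nuclear library sizes gave 1 higher and 19 lower. Between OPCs and microglia they gave 44 higher, while the 1 lower became 0 with nuclear library sizes, mitochondrial genes kept or no filter, and 3 with DESeq2 or no replicate block. The 1 slope called in microglia became 2 with DESeq2 or no filter and 0 with the replicate block or without sex and genotype. Leaving out each library or pair gave 5 to 8 higher between oligodendrocytes and OPCs, 0 to 3 lower between OPCs and microglia, and 0 microglia slopes each time.

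The mitochondrial share difference by genotype ranged from -0.49 to 3.80 points in oligodendrocytes without each library (-0.49 without the control of pair 3, -0.04 without the Rag2-/- mouse of pair 6), from 1.52 to 4.34 in OPCs, from 2.11 to 6.62 in astrocytes and from -0.088 to 0.90 in microglia, the lowest without the control of pair 3.

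Mean summed member CPM with TMM factors was 2259 in oligodendrocyte controls and 2301 in Rag2-/-, 1843 and 1986 in OPCs, and 1698 and 1656 in microglia. As a share of all gene counts, mitochondrial ones included, it was 985 and 980, 1711 and 1734, 2027 and 1957 in astrocytes, and 1344 and 1279, so oligodendrocytes came lowest, because the mitochondrial counts enter the total.

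With nuclear library sizes alone, 15, 1, 4, 8, 13 and 4 of the 50 members changed sign in oligodendrocytes against OPCs, astrocytes and microglia, OPCs against astrocytes and microglia, and astrocytes against microglia, and 0 were called in opposite directions. Among members with the 3 smallest p-values in either direction of a comparison, 5 changed sign: Cox4i1 (0.28, adjusted p = 0.0163 in edgeR), Cox7c (0.18) and Ndufa2 (0.10) between OPCs and microglia, and Cox7c (0.042) and Ndufa1 (0.0021) between astrocytes and microglia. Without each library in turn, uncalled sex differences changed sign for Ndufa10 in oligodendrocytes (-0.61 to 0.0038) and astrocytes (-0.16 to 0.084), Ndufb2 (-0.36 to 0.010) and Sdha (-0.081 to 0.0090) in astrocytes and Sdha in microglia (-0.022 to 0.19).

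Over all genes, genotype calls rose from 0 to 12 with DESeq2 and 15 with no filter in oligodendrocytes, from 1 to 3 and 95 in OPCs, from 1 to 27 with no filter in astrocytes, and from 1 to 3 (mean count of at least 10) and 9 (no filter) in microglia. Sex calls rose from 5 to 156 with DESeq2 and 92 with no filter in oligodendrocytes, from 5 to 69 with no filter in OPCs, from 6 to 16 and 115 in astrocytes and from 7 to 11 and 25 in microglia. Interaction calls rose from 6 to 132, 61 and, with no replicate block, 70. Slope calls rose from 0 to 166 and 136 in oligodendrocytes, 50 and 6 in OPCs and 58 and 64 in astrocytes (6 without sex and genotype), and in microglia from 52 to 343 and 253, or 1 with the replicate block, 18 without sex and genotype and 0 without the control of pair 3. The causes were not tested. Oligodendrocytes had 4 libraries a group and the largest errors, and members with copies elsewhere may be undercounted.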
